A study of Drosophila melanogaster with 14 samples.

Results

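The comparison describes how RNA of neuronal nuclei differed between 2 windows of Drosophila melanogaster embryogenesis, stages 10-13 and 14-17, in 4 of the 14 libraries of the series. All 4 libraries came from the study's wild-type condition, with genotype elav>INTACT: INTACT is a method in which a tag on the nuclear envelope is made in chosen cells, here under the pan-neural elav driver, and tagged nuclei are pulled out by affinity. The RNA taken was total RNA. Libraries 1 and 2 labelled stages 10-13 are called early-labelled here and libraries 1 and 2 labelled stages 14-17 late-labelled, because some gene groups ran against these labels. The members were chosen by label alone. The 4 libraries of mesodermal nuclei of the same condition, with genotype twi-INTACT and the same labelled stages, entered the fit to estimate the spread and to test where the neuronal change differed. The other 6 libraries, of mesodermal nuclei that carry GFP-Ubx, were not used here. No label says whether replicates are separate embryo collections, so the p-values capture no more than how far these libraries vary, which may be technical.

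In the embryo, neuroblasts divide and leave neurons and glia, and the neurons then send out axons and form synapses before the larva hatches. Transmitter enzymes, ion channels and neuropeptides are products of that last phase. The cuticle is laid down at the end of embryogenesis by epidermis and trachea, from chitin and families of secreted cuticle proteins, and is then tanned through the catecholamine pathway.

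Counts assigned to genes totalled 27924215 and 36150646 in the early-labelled and 32427948 and 30770900 in the late-labelled libraries, and 10549 genes were tested. Levels are CPM, counts scaled to a common normalised library size, which are not divided by gene length and are compared between libraries only. The 2 late-labelled libraries stood further apart than any other pair of replicates. Their Spearman correlation over genes was 0.937, against 0.986 for the early-labelled pair, and replicate 1 correlated as highly with the mesodermal libraries labelled 14-17 (0.933 and 0.939). Results that rest on 1 of them are given separately.

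The labelled cell type could be checked only in part. The counts of elav itself came to 35 over the 8 libraries, and ase, mira and moody, which mark neural precursors and glia, were at 0 in each. The tables list 0 in all 8 libraries for 1174 of 1212 genes that lie wholly inside another gene and share no exon, against 302 of 11822 other genes. The 12 neuronal marker genes summed to 1249 and 845 CPM in the early-labelled and 1145 and 859 CPM in the late-labelled libraries. That was above mesodermal nuclei labelled 10-13 (308 and 333 CPM), but not above those labelled 14-17 (1707 and 1222 CPM). The mesoderm determinant twi had 4.44, 7.22, 10.6 and 7.39 CPM here, against means of 404 and 839 CPM in mesoderm (overlap with other genes, 60.8% of the span). Muscle markers were present in the neuronal libraries at 9790, 11629, 9743 and 10337 CPM summed over 7 genes. In a bulk sample, fewer nuclei of a type and less RNA per nucleus cannot be told apart.

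The labelled order of stages also ran against a known late group. RNA of cuticle proteins summed to 14523 and 16582 CPM over 120 genes in the early-labelled libraries and to 1227 and 1307 CPM in the late-labelled ones. In mesodermal nuclei the same sum went the other way, from 434 and 143 CPM at the label 10-13 to 2400 and 1940 CPM at 14-17. Not every late group was reversed in this way, since the Osiris genes described below were higher in the late-labelled libraries. Whether the labels, the collection windows or the cells captured account for this was not tested, and every direction below follows the labels as given.

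Across all genes, 2154 of 10549 (20.4%) differed between the stages, 893 (8.47%) higher and 1261 (12%) lower in the late-labelled libraries, at a threshold of 5% after Benjamini-Hochberg adjustment (edgeR, quasi-likelihood). All adjusted p-values given here come from this test. The median change of all tested genes was -0.03 (log2), and 0.00 in mesoderm. Normalising by library totals alone moved it to -0.15 and gave 673 higher and 1411 lower (32.3% higher against 41.5%), while DESeq2 gave 1354 and 1345 (50.2% higher). The count rests in part on the mesodermal libraries, which share the estimate of the spread. A fit of only the 4 neuronal libraries called 765 genes, 159 higher and 606 lower. Fewer genes passed than in mesoderm, where 2629 genes (24.9%) were higher and 2398 (22.7%) lower.

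Each gene gives 4 late/early pairs of libraries. By any amount, 2891 tested genes were higher and 3391 lower in all 4 pairs, so groups that do not overlap are common. Among the genes past the threshold, 975 (9.24% of all tested) changed at least 2-fold one way in every pair, 195 (1.85%) higher and 780 (7.39%) lower. Asking in addition that the call remain when each of the 4 libraries was left out in turn kept 371 (3.52%), 54 higher (0.512%) and 317 lower (3.01%). These are said to hold below. Each fit without 1 library leaves only 1 in that group, so a lost call need not mean a smaller change. Without early-labelled replicate 1 the median of cuticle protein genes was -3.84, against -3.81 with all libraries. That of cytoplasmic ribosomal protein genes was 0.86, against 1.08. Without a late-labelled library the wide spread between those 2 no longer enters the fit, so keeping a call there is a weaker condition. Most calls were lost without early-labelled replicate 1: 54 of the 195 and 323 of the 780 passed, against 133 and 504 without early-labelled replicate 2, and at least 194 and 772 without either late-labelled library. The 54 genes changed by a median of 1.77 (1.20 to 3.47) and the 317 by a median of -3.69 (-1.10 to -8.60) on the log2 scale.

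**Figure D1:**
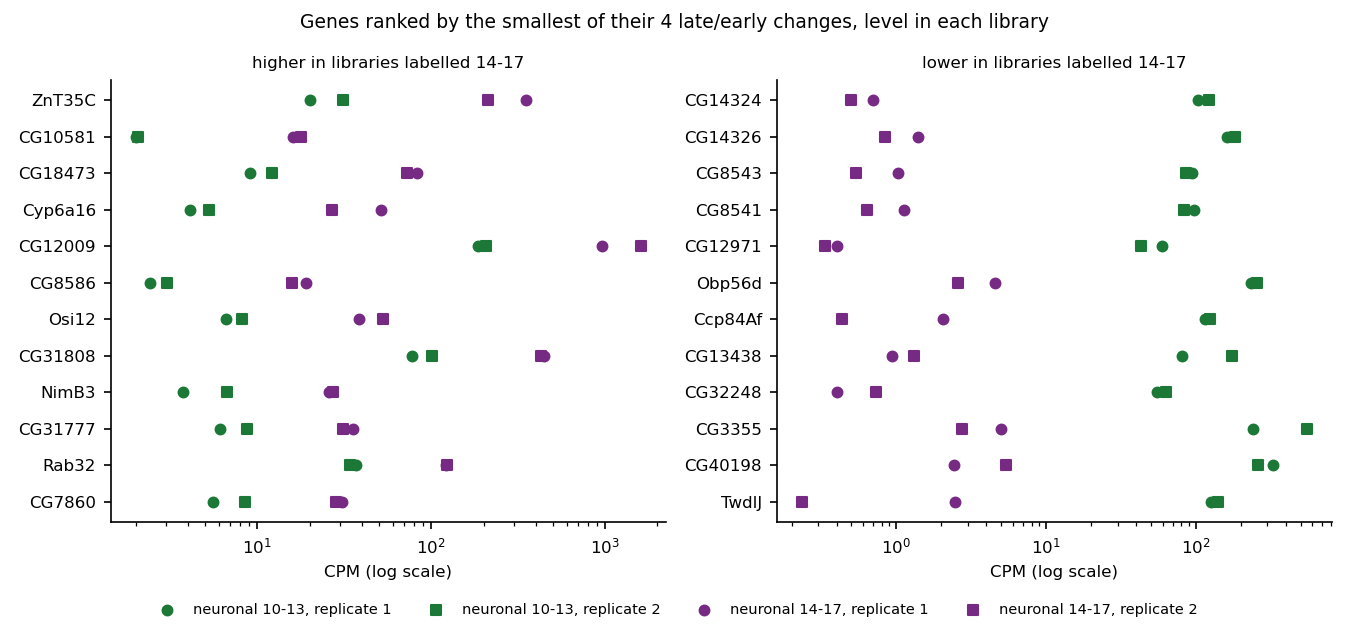
Level of 24 genes in each neuronal library, in CPM on a log axis, for the 12 higher (left) and 12 lower (right) genes that hold and whose smallest change among the 4 pairs is largest. Circles are replicate 1 and squares replicate 2. By the rule that chose these genes, the libraries labelled 10-13 (green) and 14-17 (purple) cannot overlap.

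Among genes that hold higher, the one with the largest change in its smallest pair (2.76, log2) was ZnT35C, a zinc transporter gene on 2L (BDGP6, 15228728 to 15247714, minus strand). Its level was 19.99 and 31.07 CPM in the early-labelled and 351.5 and 213.1 CPM in the late-labelled libraries, a change of 3.47 ± 0.34 (log2 ± SE, adjusted p = 0.00154). The late-labelled libraries lay far above both others, and the gene also rose in mesoderm, by 1.93. The cytochrome P450 gene Cyp6a16 stood at 4.10 and 5.25 CPM against 51.7 and 27.0 CPM, a change of 3.07 ± 0.34. Mesoderm showed no such change in Cyp6a16 (-0.09), and the difference passed the interaction test, which asks whether the neuronal change differs from the mesodermal one (3.16, adjusted p = 0.00223). The small GTPase gene Rab32, whose product acts at lysosome-related organelles, rose from 36.8 and 34.0 to 121.1 and 124.0 CPM (1.79 ± 0.22). The other 9 named by the same rule were CG10581, CG18473, CG12009, CG8586, Osi12, CG31808, NimB3, CG31777 and CG7860, with changes from 2.07 to 3.05. Of the 54 genes that hold higher, 44 also rose and 0 fell in mesoderm, and 22 passed the interaction test. The shares over all tested genes were 24.9%, 22.7% and 35.4%.

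The 12 genes named among those that hold lower, chosen by the change in their smallest pair, went from a high level to almost nothing. CG14324 on 3R (17618281 to 17618799, minus strand) stood at 103.1 and 122.5 CPM in the early-labelled and 0.699 and 0.501 CPM in the late-labelled libraries, a change of -7.53 ± 0.35 (adjusted p = 0.000566). Its neighbour CG14326 fell from 162.7 and 182.2 to 1.40 and 0.836 CPM. The odorant-binding protein gene Obp56d fell from 233.4 and 257.5 to 4.57 and 2.57 CPM (-6.09 ± 0.40). For each of these genes the groups were far apart, and no early-labelled library came near a late-labelled one. The cuticle protein genes Ccp84Af (-6.57 ± 0.82) and TwdlJ (-6.60 ± 0.87) were named by the same rule, as were CG8543, CG8541, CG12971, CG13438, CG32248, CG3355 and CG40198, with changes from -6.24 to -7.10. Of these 12 genes CG14324 had the highest mesodermal mean, 5.84 CPM at the label 10-13. Of the 317 genes that hold lower, 150 rose and 29 fell in mesoderm, and 279 passed the interaction test. Over all tested genes 24.9% rose and 22.7% fell in mesoderm, and 35.4% passed the interaction test. Choosing genes by a large neuronal fall raises the number that pass the interaction test by itself.

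**Figure D2:**
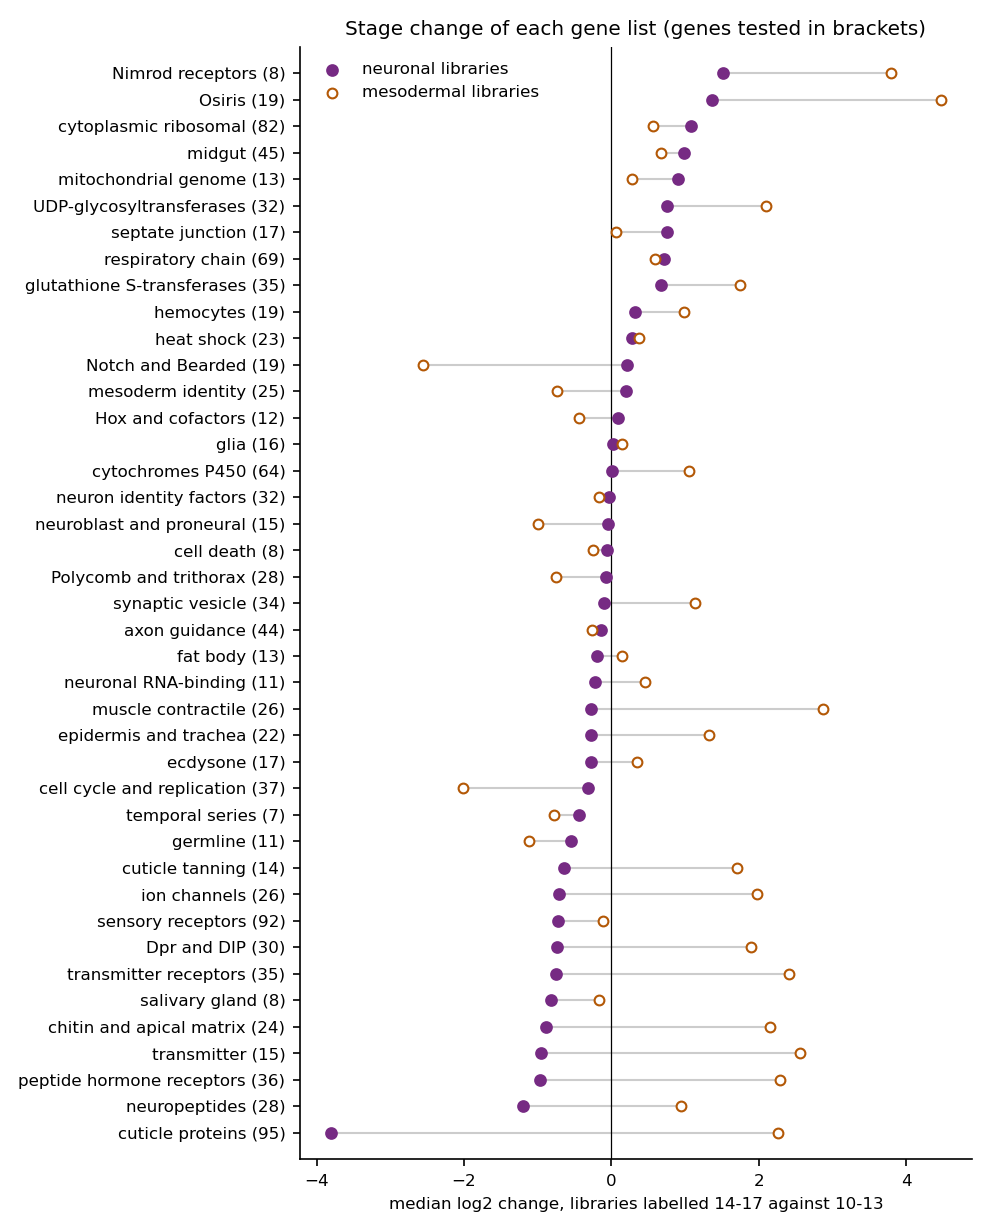
Median log2 change of each gene list between the libraries labelled 14-17 and 10-13, in neuronal libraries (filled) and mesodermal libraries (open), with the number of genes tested in brackets. Of the lists drawn, cuticle proteins show the widest gap, -3.81 against 2.26, and neuropeptides, peptide and transmitter receptors, transmitter genes and ion channels lie left of 0 in neuronal and right of 0 in mesodermal libraries.

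Cuticle structural proteins were the group with the most genes that fell. Of 95 tested genes, 70 were lower and 0 higher in the late-labelled libraries, beside 12% lower over all genes, with a median change of -3.81. All but 1 of the 70 fell at least 2-fold in every pair, and 38 hold. The count was 38 without early-labelled replicate 1, 50 without early-labelled replicate 2, and 75 or 76 (with 1 higher) without a late-labelled library. In mesoderm 52 of the 95 rose and 4 fell, and the neuronal change lay below the mesodermal one in 72 by the interaction test. The share of all counts assigned to this list was 1.66 and 1.91% in the early-labelled and 0.141 and 0.127% in the late-labelled libraries. The 6 epidermal markers (shg, kkv, serp, verm, knk and Gasp) summed to 4534 and 3833 CPM against 1879 and 3101 CPM, with 3 of 6 lower and none at 0, and their part in this result was not tested.

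All 3 families of the list took part. The Cpr genes, which encode proteins with a chitin-binding domain, were lower in 34 of 53 cases. Cpr78Cc stood at 375 and 362 CPM against 12.4 and 12.2 CPM (-4.90 ± 0.40), and Cpr78Cb at 241 and 205 against 10.0 and 13.0 CPM. Replicates lay close together and groups far apart for both genes. The Tweedle family, secreted cuticle proteins that shape the larval body, was lower in 16 of 20 cases, with TwdlQ at 140 and 169 against 4.36 and 1.94 CPM. The Lcp and Ccp84 genes, larval cuticle proteins in clusters, were lower in 18 of 20 cases. Lcp4 went from 106 and 91.7 to 3.33 and 4.18 CPM (-4.72 ± 0.27), and Lcp2 from 39.7 and 35.4 to 0.592 and 0.1003 CPM. The calls were 22, 5 and 10 for the 3 families without early-labelled replicate 1, and 8 for Tweedle without early-labelled replicate 2.

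**Figure D3:**
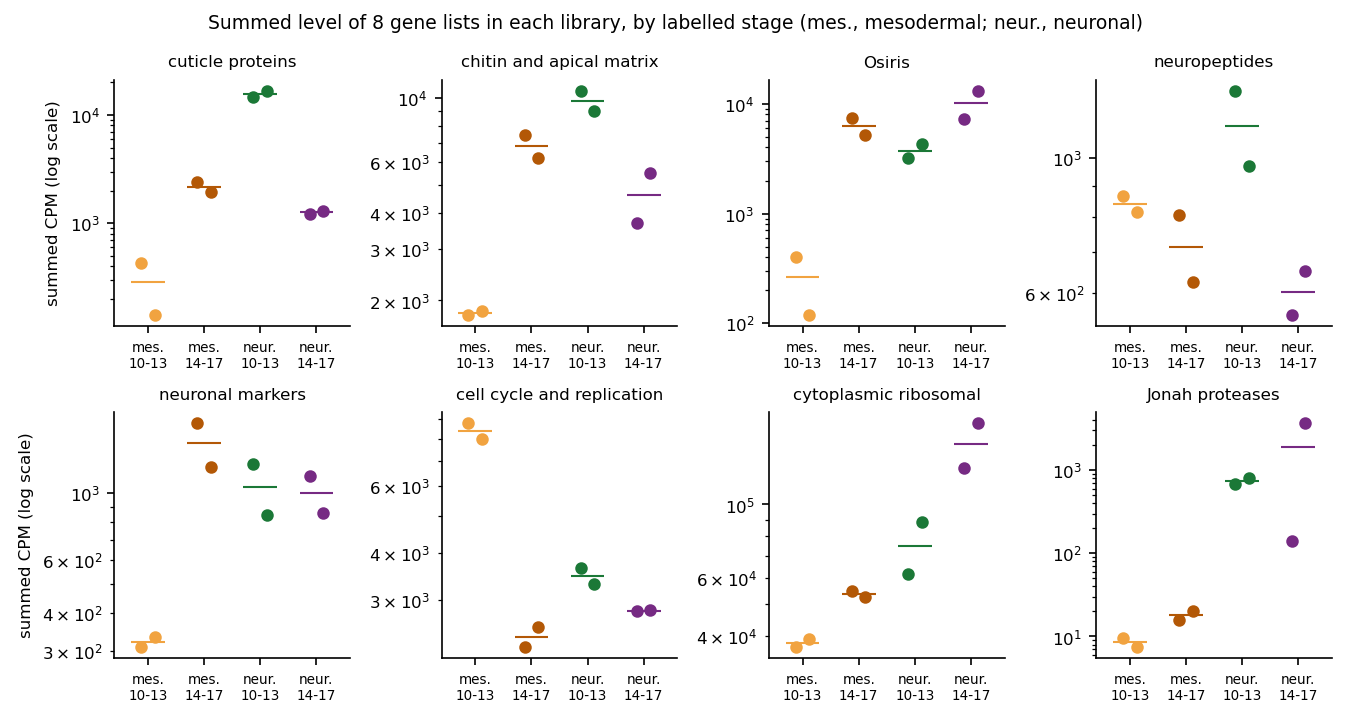
Summed CPM of 8 gene lists in each of the 8 libraries on log axes, with a line at the mean of the 2 replicates and labelled stages on the x axis. Cuticle protein RNA lay at 14523 and 16582 CPM in the neuronal libraries labelled 10-13 and at 1227 and 1307 CPM in those labelled 14-17, and the Jonah proteases separate the 2 neuronal libraries labelled 14-17.

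Genes that lie next to each other in the genome fell together. Of the 773 genes lower in every pair with coordinates, 327 (42.3%) had a neighbour among tested genes that was also lower in every pair, against 13.4% of all tested genes. There were 23 runs of 4 or more neighbouring genes, with 130 genes in all. The longest, on 3L (6123934 to 6145393), held 11 genes over 21.5 kb, the Lcp65A and Cpr65A cuticle genes and l(3)mbn, whose span is overlapped by other genes over 70.0%, with changes from -6.60 to -2.93. None of the 12 tested genes around it both passed the test and changed 2-fold in every pair, and their changes ran from -3.01 to 0.77. Among them, the cuticle genes Lcp65Aa (-1.49 ± 0.97), Acp65Aa (-3.01 ± 1.11) and Cpr65Ay (-2.49 ± 0.8) were also lower, so the run has no sharp edge on that side. The Tweedle run on 3R (26627885 to 26714159) held 10 genes with a median of -5.43, among them beat-VII and the peptide convertase gene amon, which belong to other families. The Ccp84A run on 3R (6689602 to 6704903) lies in the Antennapedia complex between the Hox genes lab and pb. Its 6 genes changed by -3.39 to -6.57, while the next gene on one side, Ccp84Ag, stood at 122.1 and 125.8 CPM against 100.8 and 110.6 CPM (-0.23 ± 0.68, adjusted p = 0.833), and lab and pb changed by -0.33 and -0.37 without passing the test. Neighbours in these clusters are similar copies, and the sources used here do not give how reads shared between copies were counted.

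**Figure D4:**
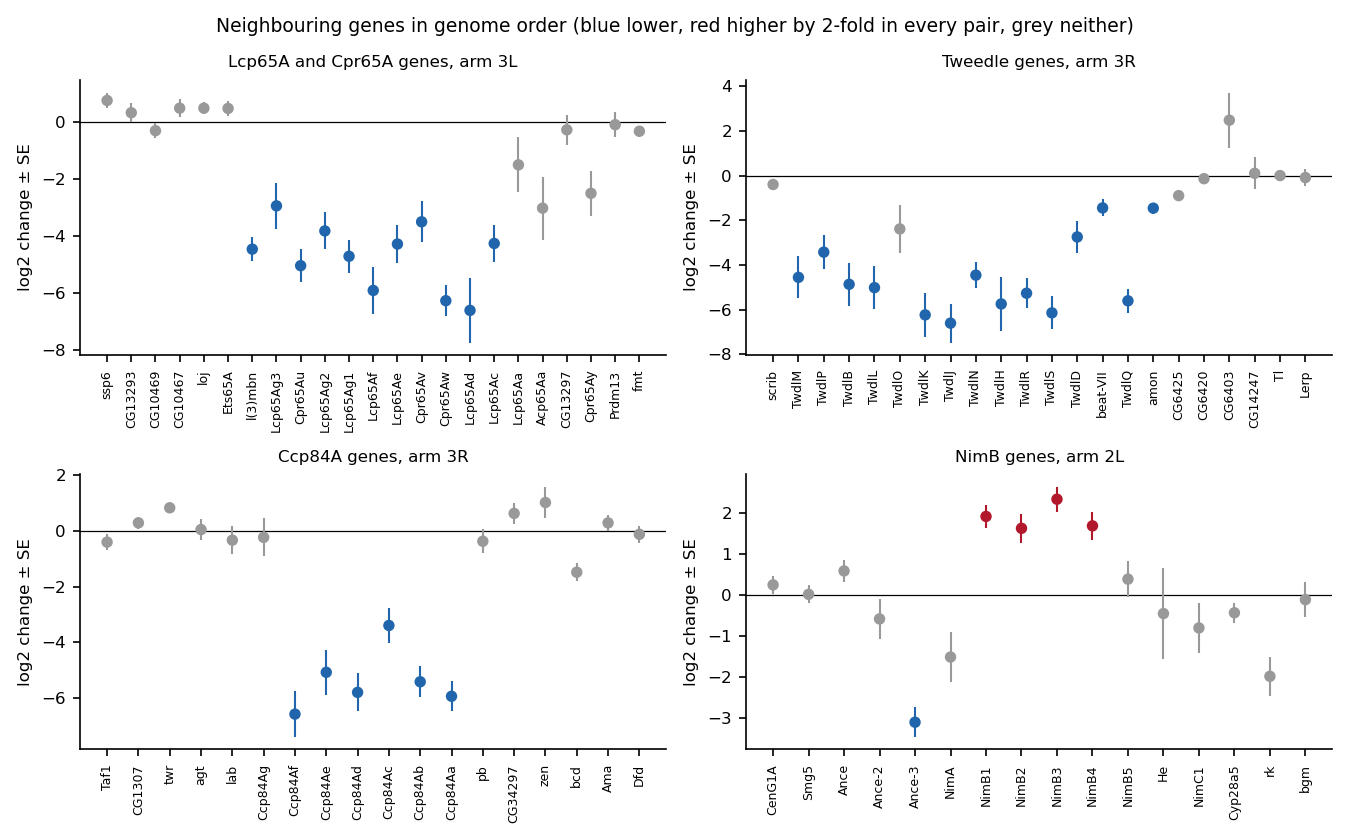
Log2 change ± SE of neighbouring tested genes in genome order in 4 clusters, each with 6 tested genes to either side. The Lcp65A run lies between -2.93 and -6.60, Ccp84Ag lies at -0.23 beside the Ccp84A run, and the NimB genes are the only run above 0.

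Enzymes and matrix proteins of the cuticle fell in part, where 12% of all tested genes were lower and 8.47% higher. Of 24 genes of chitin and apical matrix, 13 were lower and 2 higher (median -0.89), and 5 of those lower hold. The giant apical matrix protein gene dpy fell from 805 and 638 to 168 and 169 CPM (-2.10 ± 0.22, adjusted p = 0.00183). The zona pellucida domain genes zye and pio stood at 205 and 231 against 10.3 and 4.01 CPM, and at 247 and 177 against 45.3 and 60.5 CPM. Of the 2 that were higher, m, also a zona pellucida domain gene, stood at 43.8 and 46.1 against 79.6 and 120 CPM. Of 14 tanning enzymes 5 were lower and 0 higher. The dopa decarboxylase gene Ddc fell from 136.4 and 81.1 to 4.68 and 5.78 CPM (-4.38 ± 0.50) and holds, as do e and yellow-h. The tyrosine hydroxylase gene ple fell from 111.4 and 85.8 to 23.8 and 27.1 CPM (-1.96 ± 0.47), a call lost without early-labelled replicate 1 (adjusted p = 0.168) or 2 (0.0724). Ddc and ple also make dopamine in neurons, which these counts do not tell apart from tanning. By the interaction test the neuronal change lay below the mesodermal one in 21 of the 24 matrix genes and 11 of the 14 tanning genes. Calls in the matrix list numbered 5 lower and 0 higher without early-labelled replicate 1, and 8 and 0 without early-labelled replicate 2. Tanning calls numbered 3 without either one.

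Osiris genes, clustered genes of cuticle-forming cells, moved the other way. Of 19 tested, 8 were higher and 2 lower (median 1.37), beside 8.47% and 12% over all genes. All 8 were at least 2-fold higher in every pair. Osi12 rose from 6.63 and 8.13 to 38.2 and 52.6 CPM (2.62 ± 0.30, adjusted p = 0.00237) and holds. Osi18 rose from 55.0 and 76.0 to 447.1 and 723.9 CPM (3.16 ± 0.60), without overlap between groups, but not without early-labelled replicate 1 (adjusted p = 0.129) or 2 (0.0637). Osi2 went down, from 331.1 and 581.6 to 57.3 and 32.1 CPM (-3.35 ± 0.75), and lost its call without early-labelled replicate 1 (0.0913) or 2 (0.0874). In mesoderm 18 of the 19 rose, with a median of 4.48, and in 14 of the 19 the neuronal change lay below the mesodermal one. The list had 1 higher and 0 lower without early-labelled replicate 1, and the same without replicate 2.

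Markers and vesicle proteins of mature neurons had almost no calls between the labelled stages, beside 8.47% higher and 12% lower over all genes. Among 11 tested neuronal markers 0 passed by edgeR (median -0.19; 2 at an unadjusted p under 0.05, 0 by limma-voom, 1 higher by DESeq2), whereas all 11 rose in mesoderm. The vesicle protein genes nSyb and Syt1 stood at 111, 77.4, 118 and 77.3 CPM and at 138, 83.9, 165 and 64.0 CPM, early-labelled libraries first. The active zone gene brp stood at 139, 76.3, 108 and 56.1 CPM. Groups overlapped for all 3 genes, and replicate 1 was above replicate 2 at both labelled stages. Of 34 genes of synaptic vesicles 1 was lower and 0 higher (median -0.10), against 21 that rose in mesoderm, and 11 genes of neuronal RNA-binding proteins had 0 calls by edgeR (5 at an unadjusted p under 0.05, 2 higher by DESeq2, 1 lower by limma-voom). The vesicle list depended on which late-labelled library was kept, with 11 lower and 1 higher (median -0.47) without replicate 1 and 2 lower and 2 higher (median 0.30) without replicate 2.

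Proteins of signalling between neurons were lower more often. The neuropeptide list had 11 of 28 lower and 0 higher (median -1.20), beside 12% lower over all genes, and 10 of the 11 fell at least 2-fold in every pair. NPF, which encodes neuropeptide F, fell from 20.02 and 29.65 to 1.40 and 4.08 CPM (-3.19 ± 0.54), and FMRFa from 7.54 and 4.89 to 0.242 and 0.769 CPM. The convertase gene amon, whose enzyme cleaves peptide precursors, stood at 91.7 and 74.6 against 33.5 and 27.4 CPM (-1.45 ± 0.24). It rose in mesoderm by 3.69, so its interaction was -5.14 (adjusted p = 0.000512). The gene of ecdysis triggering hormone, ETH, was the only 1 of the 11 that holds (43.8 and 51.4 against 8.66 and 14.6 CPM), with its whole span overlapped by other genes. Both amon and NPF lost their calls without early-labelled replicate 1 (adjusted p = 0.0838 and 0.0528), and NPF also without replicate 2 (0.0509). The list had 1 lower gene without early-labelled replicate 1, 3 without replicate 2 and 19 without late-labelled replicate 2.

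Receptors, transmitter genes and channels are to be read beside 12% lower and 8.47% higher over all genes. Of 36 receptors of peptide hormones 12 were lower and 0 higher (median -0.97), with PK2-R2, a receptor of pyrokinins, at 53.3 and 42.8 against 4.55 and 9.19 CPM (-2.81 ± 0.35). Transmitter receptors had 8 of 35 lower and 0 higher (median -0.75). The ligand-gated chloride channel gene Grd stood at 14.7 and 10.9 against 1.29 and 2.01 CPM, and the nicotinic receptor gene nAChRalpha7 at 97.8 and 48.6 against 14.9 and 9.63 CPM. PK2-R2, Grd and nAChRalpha7 hold. Of 15 genes of transmitter synthesis and transport 4 were lower, Ddc, ple, the monoamine transporter gene Vmat and the glutamate transporter gene Eaat1. Ion channels had 5 of 26 lower and 0 higher (median -0.71). The pacemaker channel gene Ih fell from 189 and 128 to 29.6 and 31.1 CPM (-2.38 ± 0.23, adjusted p = 0.00154), and Hk, a potassium channel subunit, from 63.8 and 38.6 to 7.58 and 10.6 CPM, and both hold. In these lists the neuronal change lay below the mesodermal one in 25 of 36, 26 of 35, 13 of 15 and 20 of 26 genes. Without early-labelled replicate 1 the lower calls were 2, 2, 1 and 2, without early-labelled replicate 2 they were 9, 4, 2 and 3, and without late-labelled replicate 1 they were 17, 28, 10 and 18. They were 15, 6, 5 and 5 without late-labelled replicate 2, when transmitter receptors also had 3 higher. The median of transmitter receptors was -1.54 without late-labelled replicate 1 and -0.36 without replicate 2, and that of ion channels -1.40 and -0.28.

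Cell surface and sensory genes gave a mixed picture, to be read beside 12% lower and 8.47% higher over all genes. The Dpr and DIP receptors, which pair up between synaptic partners, had 6 of 30 lower and 1 higher. DIP-alpha, the one that was higher, stood at 46.0 and 69.2 against 120 and 103 CPM (0.96 ± 0.23), and other genes overlap 46.2% of the span. The call was lost without early-labelled replicate 1 (adjusted p = 0.127), and without it the list had 0 calls. It had 1 lower without early-labelled replicate 2 and 20 lower without late-labelled replicate 1, and 3 higher and 5 lower without late-labelled replicate 2. The adhesion gene Fas3, which marks subsets of axons, rose from 356.1 and 379.8 to 866.4 and 1027 CPM (1.36 ± 0.19, adjusted p = 0.00454), the only higher call among 44 axon guidance genes in this fit (2 by DESeq2 or limma-voom), and it holds. The list also had 4 lower, 0 without early-labelled replicate 1 and 1 without early-labelled replicate 2. It had 1 higher and 11 lower without late-labelled replicate 1 (median -0.45), and 6 higher and 1 lower without late-labelled replicate 2 (median 0.17). Among 92 sensory receptor genes with enough counts 16 were lower and 3 higher, with 0 calls without early-labelled replicate 1, 2 lower without replicate 2, and 6 higher and 35 lower without late-labelled replicate 1. Without late-labelled replicate 2 there were 9 higher and 16 lower. They include the rhodopsin genes Rh5, at 10.6 and 6.93 against 1.59 and 2.34 CPM, and Rh6, at 14.5 and 11.8 against 3.55 and 4.95 CPM.

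Regulators of neural identity changed in few cases, beside 8.47% higher and 12% lower over all genes. The zinc finger gene fru, which specifies sexual identity of neurons, fell from 275.4 and 223.6 to 12.3 and 32.3 CPM (-3.48 ± 0.47, adjusted p = 0.00418) and holds. The zinc finger gene jim stood at 128.9 and 93.0 against 26.5 and 40.1 CPM, and lost its call without early-labelled replicate 1 (adjusted p = 0.0777). These were the only calls among 32 factors of neuron identity (median -0.03), but 10 were lower without late-labelled replicate 1, and 8 higher and 3 lower without late-labelled replicate 2. Of 15 genes of neuroblasts and proneural clusters 2 were lower, ato and sca, and 1 was higher, nerfin-1, and of 7 genes of the temporal series of neuroblasts grh was lower. Other genes overlap 72.9% of the span of sca. The call of nerfin-1 was lost without early-labelled replicate 1 (adjusted p = 0.084) or 2 (0.0883), and that of grh without early-labelled replicate 1 (0.226) or 2 (0.0575) or late-labelled replicate 1 (0.059). The proneural gene ato stood at 2.88 and 3.80 against 0.834 and 0.635 CPM and holds. The ecdysone-induced factor gene Eip74EF fell from 153.1 and 112.3 to 16.0 and 7.29 CPM (-3.51 ± 0.39) and holds. It rose in mesoderm by 1.54, and the interaction was -5.04 (adjusted p = 0.000884).

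Hox genes showed little, where 8.47% of all tested genes were higher and 12% lower. Ubx stood at 117 and 127 against 126 and 101 CPM (-0.10 ± 0.19, adjusted p = 0.740) with overlapping groups. The other Hox genes named, abd-A, Abd-B and Antp, changed by 0.33, 0.22 and 0.31 without passing the test, and other genes overlap 60.3% of the span of Antp. In mesoderm Ubx went from 857 to 408 CPM, and the interaction of 0.97 passed (adjusted p = 0.0299). The Hox cofactor gene exd rose from 103 and 100 to 186 and 232 CPM (1.03 ± 0.25), the only call among 12 Hox genes and cofactors, lost without early-labelled replicate 1 (0.142) or 2 (0.0967).

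Genes of dividing cells were lower about as often as genes at large in the neuronal libraries, unlike in mesoderm. The counts of this and the Notch list are to be read beside 12% lower and 8.47% higher over all genes. Of 37 genes of the cell cycle and replication 4 were lower and 1 higher (median -0.32). In mesoderm 36 fell (median -2.01), and in 29 the neuronal change lay above the mesodermal one. The kinesin gene pav, needed for cytokinesis, fell from 274 and 195 to 93.3 and 94.9 CPM (-1.32 ± 0.21) and holds. The cyclin-dependent kinase inhibitor gene dap, which stops the cycle, rose from 138 and 138 to 209 and 255 CPM (0.75 ± 0.18), a call lost without early-labelled replicate 1 (adjusted p = 0.124) or 2 (0.0735). Lower calls in the list numbered 1 without early-labelled replicate 1 and 2 without late-labelled replicate 2. Notch targets and Bearded genes, which act in choosing neural precursors, had 2 of 19 higher and 0 lower, and 0 without either early-labelled library. In mesoderm 16 of the 19 fell, and the same number had a neuronal change above it.

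Most genes of cytoplasmic ribosomal proteins were higher in the late-labelled libraries. Of 82 tested 65 were higher and 0 lower, beside 8.47% higher over all genes, with a median of 1.08, and only 2 were 2-fold higher in every pair. RpL26 stood at 664 and 912 CPM in the early-labelled and 1755 and 2122 CPM in the late-labelled libraries (1.299 ± 0.229, adjusted p = 0.0104). Their share of all counts was 7.06, 10.2, 14.8 and 17.1%, so that the 2 early-labelled libraries differed between themselves in the same direction as the stages. The call of RpL26 was lost without early-labelled replicate 1 (0.0755) and the list then had 0 calls. A fit of only the 4 neuronal libraries left 1. The mesodermal shares were 3.58 and 3.76% at the earlier label and 4.69 and 4.5% at the later one. The median change in mesoderm was 0.56, and 4 of the 82 rose and 2 fell there. By the interaction test the neuronal change lay above the mesodermal one in 5 of the 82 and below it in 0.

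Of 69 nuclear genes of the respiratory chain, 22 rose and 1 fell in mesoderm (median 0.59). By the interaction test the neuronal change lay above the mesodermal one in 2. In the neuronal libraries 11 were higher and 0 lower (median 0.72), beside 8.47% higher over all genes. The count ranged widely, 0 without early-labelled replicate 1, 51 higher and 1 lower without late-labelled replicate 1, 3 without late-labelled replicate 2 and 39 with DESeq2. The 13 genes of the mitochondrial genome had 0 calls by edgeR (0 at an unadjusted p under 0.05, 1 by DESeq2, 0 by limma-voom, 6 without late-labelled replicate 1). Their share of counts was 1.78 and 4.56% in the early-labelled and 3.40 and 6.94% in the late-labelled libraries, higher in replicate 2 at both stages. Such transcripts are not made in the nucleus, and their part in the other results was not tested.

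Several gene groups of other tissues were higher in the late-labelled libraries. Septate junction genes, which seal epithelia and the glial sheath of the nervous system, had 8 of 17 higher and 0 lower (median 0.75). The claudin genes pck and kune stood at 69.3 and 77.3 against 134 and 182 CPM, and at 97.9 and 112 against 186 and 243 CPM. Both calls were lost without early-labelled replicate 1 (adjusted p = 0.0851 and 0.0978), as were all 8, and 3 remained called without early-labelled replicate 2 and 15 without late-labelled replicate 1. Hemocyte genes had 6 of 19 higher and 0 lower, beside 8.47% higher over all genes, among them the globin gene glob1, from 45.7 and 59.3 to 127 and 134 CPM (1.31 ± 0.20), which holds. The list had 1 and 2 higher without early-labelled replicate 1 or 2, and 9 were higher and 4 lower without late-labelled replicate 2. The hemocyte markers Hml, Pxn, crq, NimC1 and eater summed to 184, 170, 186 and 223 CPM, and of them Pxn alone passed the test, upward. The median change of these 5 was -0.80, and without late-labelled replicate 2 it was -2.21 with 3 lower and 1 higher.

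The NimB genes, secreted relatives of phagocytic Nimrod receptors, formed the only run of 4 or more neighbours that was higher in every pair, on 2L (13963507 to 13969976). NimB3 rose from 3.72 and 6.69 to 25.8 and 27.2 CPM (2.34 ± 0.30, adjusted p = 0.00346) and holds, while NimB1 and NimB4 lost their calls without early-labelled replicate 1 (0.0626 and 0.127). The neighbours NimB5 and NimC1 changed by 0.39 and -0.80 without passing the test. Of 8 Nimrod genes tested 5 were higher (1 without early-labelled replicate 1, 4 without replicate 2), and 7 rose in mesoderm, and for 7 the neuronal change lay below the mesodermal one.

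Detoxification families were among those with calls in both directions, to be read beside 8.47% higher and 12% lower over all genes. In mesoderm 19 of 35 glutathione S-transferases, 20 of 32 UDP-glycosyltransferases and 28 of 64 cytochromes P450 rose, and 0, 2 and 6 fell. Glutathione S-transferases had 11 of 35 higher and 3 lower (median 0.68), with GstE12 at 37.4 and 50.1 against 156 and 218 CPM (2.10 ± 0.23) and GstE6 at 19.1 and 26.7 against 74.6 and 103 CPM, and both hold. UDP-glycosyltransferases had 6 of 32 higher and 3 lower, with Ugt317A1 at 27.5 and 37.1 against 150 and 117 CPM (2.05 ± 0.22), which holds. Cytochromes P450 had 11 of 64 higher and 10 lower. Cyp4c3 fell from 485 and 318 to 21.6 and 8.49 CPM (-4.73 ± 0.59), and Cyp4g15 from 69.7 and 46.5 to 6.19 and 7.49 CPM. Without early-labelled replicate 1 the 3 families had 2, 2 and 1 higher and 0, 0 and 4 lower, and without early-labelled replicate 2 they had 4, 3 and 4 higher and 1, 2 and 8 lower. The medians of the 3 families were 0.68, 0.76 and 0.01 with all libraries. They were 0.92, 0.93 and 0.03 without late-labelled replicate 1, and 0.19, 0.17 and -0.48 without late-labelled replicate 2.

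Muscle and mesoderm genes were not carried along with the mesodermal change. Over all genes 12% were lower and 8.47% higher in the neuronal libraries. Of 26 contractile genes 4 were lower and 0 higher, against 24 that rose in mesoderm, and Mhc stood at 2784 and 2276 against 1823 and 1851 CPM (-0.46 ± 0.27, adjusted p = 0.254) while it rose in mesoderm by 3.90. The titin-like gene sls stood at 1320 and 1723 against 764 and 704 CPM (-1.05 ± 0.26), a call lost without early-labelled replicate 1 (0.0954) or 2 (0.123). The 4 lower calls were 0 without either early-labelled library. Among 25 mesoderm identity genes 5 were higher and 1 lower. The T-box gene org-1, a factor of muscle founders, rose from 15.6 and 17.6 to 37.1 and 45.0 CPM (1.305 ± 0.178) and holds, and was the only one of them left without early-labelled replicate 1. Glial genes had 2 of 16 lower and 0 higher, with the lower ones near the share of all genes. These were e, also counted among the tanning enzymes above, and the transporter gene Mdr65. The glial determinant repo stood at 77.0 and 49.4 against 60.6 and 57.5 CPM with overlapping groups.

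The remaining lists are given as counts of higher and lower genes, beside 8.47% and 12% over all genes. Polycomb and trithorax genes had 1 higher and 1 lower of 28 (mesoderm 1 and 20), ecdysone genes 0 and 3 of 17, fat body genes 2 and 2 of 13, germline genes 2 and 3 of 11 and salivary gland genes 1 and 4 of 8. Epidermal and tracheal genes had 1 and 5 of 22, heat shock and stress genes 2 and 3 of 23 and cell death genes 1 and 0 of 8. The stress gene Gadd45 fell from 101 and 93.8 to 20.04 and 14.58 CPM (-2.49 ± 0.22) and holds. Without early-labelled replicate 1 each of these lists had at most 1 call.

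**Figure D5:**
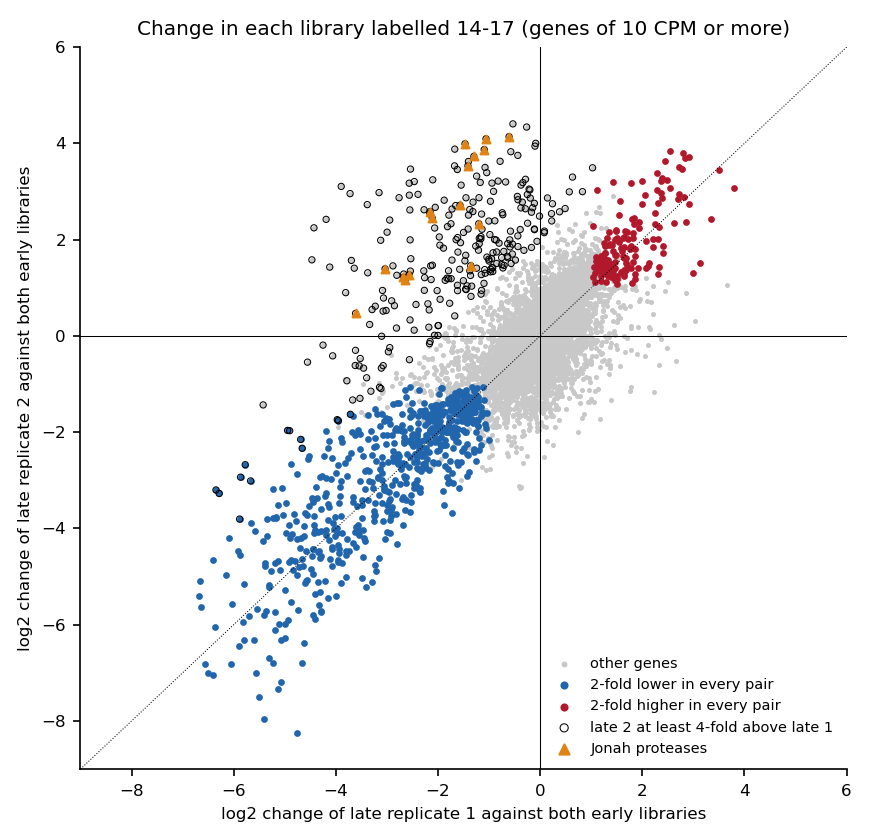
Log2 change of each gene in late-labelled replicate 1 (x axis) and replicate 2 (y axis), each as the mean of its changes against both early-labelled libraries, for genes that reach 10 CPM in any neuronal library. Genes changed in every pair lie along the diagonal, while the 264 genes at least 4-fold higher in replicate 2 and at 10 CPM or more there (rings), with all 16 Jonah proteases, lie above it.

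Some differences came from 1 late-labelled library only. Among genes that reach 10 CPM in either one, 264 were at least 4-fold higher in late-labelled replicate 2 than in replicate 1, and 48 at least 4-fold lower. Between the early-labelled libraries the numbers were 3 and 1. Only 17 of these 312 genes passed the stage test. Of the 264, 183 stood at least 2-fold above both early-labelled libraries in replicate 2, 170 at least 2-fold below both in replicate 1, and 93 did both. As a result, the direction of some genes turned with the late-labelled library that was kept. The median change of the midgut genes described next was 1.86 without replicate 1 and -1.49 without replicate 2. Each such fit rests on 1 late-labelled library and leaves out the spread between the 2.

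Digestive genes of the midgut made up the clearest block of this kind. All 16 Jonah genes, serine proteases of the larval midgut, were at least 4-fold higher in late-labelled replicate 2. By edgeR none of them passed (0 also by DESeq2 and limma-voom, 3 at an unadjusted p under 0.05). Jon99Fii stood at 51.2 and 45.9 CPM in the early-labelled libraries and at 19.4 and 648 CPM in the late-labelled ones, so that 1 late-labelled library lay below and the other above both early-labelled libraries. Its change was 2.78 ± 1.21 (adjusted p = 0.143), and -1.26 without late-labelled replicate 2 (adjusted p = 0.0243). Leaving out late-labelled replicate 1 called 15 of the 16 higher, and leaving out replicate 2 called 12 lower. The mucin gene Muc26B and Peritrophin-15a, a component of the gut lining, stood at 50.3, 35.7, 3.604 and 283 CPM and at 11.2, 13.1, 0.914 and 98.5 CPM. In all, 30 of 45 midgut genes were at least 4-fold higher in replicate 2, and their sum was 1329, 1515, 665 and 5428 CPM. Of the list 3 were higher and 1 lower with all libraries, 35 and 2 without late-labelled replicate 1, and 2 and 25 without replicate 2. GATAe, which encodes a GATA factor of the midgut, did not rank these libraries in the same way, at 34.6, 28.4, 97.2 and 49.2 CPM. The part of midgut RNA in other results was not tested.

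Late-labelled replicate 1 stood above replicate 2 in fewer genes and at smaller ratios. The Tweedle gene TwdlH was at 428, 681, 19.3 and 1.27 CPM, low in both late-labelled libraries but 3.49 (log2) lower in replicate 2. Prat2, a gene of purine synthesis, stood at 10.7, 6.67, 56.0 and 5.75 CPM, and the P450 gene Cyp309a2 at 3.88, 4.64, 21.7 and 1.60 CPM, so that both were high in 1 library alone. Other genes overlap 73.7% of the span of Cyp309a2. The lipoprotein gene apolpp, which makes up nearly all counts of the fat body markers, stood at 804, 796, 3712 and 1101 CPM and was likewise highest in that library, with Adh at 0 in each. Between the early-labelled libraries, the zinc finger gene mamo stood at 9.82 and 45.3 CPM, against 2.58 and 1.17 CPM in the late-labelled ones, and Obp28a at 6.88 and 27.9 CPM, against 14.9 and 28.9 CPM.

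The direction of the change varied with gene length, but not in every late/early pair. Of tested genes that span under 2 kb, 11.9% were higher and 10.1% lower (median 0.20), and of those that span 50 kb or more 2.41% were higher and 18.2% lower (median -0.39). Leaving out ribosomal protein genes lowered the first share to 10.7%. In mesoderm the medians were -0.02 and 0.39 for the same bins. The medians of genes of 50 kb or more were -0.19 and -0.04 in late-labelled replicate 1 against early-labelled replicates 1 and 2, and -0.80 and -0.64 in replicate 2. Those of genes under 2 kb were 0.15 and -0.03, and 0.3 and 0.1. This pattern was thus larger in late-labelled replicate 2. Late-labelled replicate 1 against early-labelled replicate 2 showed almost none (-0.03 and -0.04).

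Most genes called in mesoderm had no call in the neuronal libraries, and the rest moved the same way or the opposite way. The 2 sets of libraries are labelled with the same stages, and they share no library. Of 2629 genes that rose in mesoderm, 358 (13.6%) rose, 522 (19.9%) fell and 1749 (66.5%) were not called in the neuronal libraries. Of 2398 that fell in mesoderm, 57 (2.38%) rose, 233 (9.72%) fell and 2108 (87.9%) were not called. The neuronal shares over all tested genes were 8.47% higher and 12% lower. By the interaction test 3730 genes (35.4%) differed in their change, 1555 (14.7%) with the neuronal change above and 2175 (20.6%) below. Genes lower in every neuronal pair were more often those that rose in mesoderm (370 of 780) than those that fell there (73). Genes higher in every pair also mostly rose in mesoderm (147 of 195, against 4 that fell). Over all tested genes 24.9% rose and 22.7% fell in mesoderm.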

How the data were processed

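Total RNA of affinity-purified nuclei was sequenced, and the values are whole-number counts per gene as the authors deposited them, 1 table of 14156 genes a library. Per the submitters' processing notes, FastQC and HTSeq were used with the builds BDGP6 and dm6. Which aligner, versions and annotation were used, and whether counting used strand, is not stated in the sources at hand.

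From these counts the 8 libraries of elav>INTACT and twi-INTACT nuclei were fitted together with edgeR 4.0.16 in R 4.3.3 (TMM scaling, filterByExpr with a minimum count of 10 and a minimum total of 15, quasi-likelihood test, Benjamini-Hochberg adjustment over 10549 genes, 5% threshold). The fit had 4 residual degrees of freedom and a common coefficient of biological variation of 0.277. Pair values are log2(CPM + 0.5). Library totals limit precision: 3 counts correspond to 0.0830 to 0.107 CPM (scaled by the total alone) in the 4 neuronal libraries, and such limits cover counting error only. Gene symbols, spans and overlaps came from the BDGP6 annotation of Ensembl release 115, with a symbol for 98.4% of IDs. Genes with 40% or more of the span shared with other genes are marked as such where they are described, since their reads may belong to neighbours.

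Named genes were the 12 higher and 12 lower genes that hold with the largest change in their smallest pair (at least 10 CPM), up to 3 called members a list in each direction (further members are given with their values where a whole list is described), genes furthest apart between replicates, fixed marker and Hox genes, and the 5 largest interactions each way. The members and the gene lists were chosen with earlier results of these data known, and 12 lists were added later, so counts per list describe these libraries only. Alternatives were other scalings and filters, DESeq2 1.42.0, limma-voom 3.58.1, a fit of the neuronal libraries alone, a replicate block and leaving out each library. The test was also run on simulated counts in which all libraries had the same spread. That check does not cover late-labelled libraries that stand further apart than the others. Sequences and promoter motifs were not used here.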

Additional observations from a re-analysis of the deposited data

Results flagged for a closer look

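The change between labelled stages differed between neuronal and mesodermal nuclei for 3730 genes by edgeR's interaction test at 5%. The genes named here are the 5 with the largest difference each way. The neuronal change exceeded the mesodermal one by 5.37 (log2) for CG31373, 5.22 for the Bearded family gene BobA, 4.91 for CG13793, 4.77 for the Wnt gene wntD and 4.69 for CG15109. Each of these 5 fell in mesoderm, from means of 10.6 to 0.736 CPM for CG31373, 44.2 to 0.698 CPM for BobA, 40.5 to 1.82 CPM for CG13793, 17.2 to 0.169 CPM for wntD and 18.0 to 0.947 CPM for CG15109. On the other side, the neuronal change lay below the mesodermal one, by -11.36 for CG3355, -10.84 for CG32248, -10.57 for TwdlJ, -10.06 for CG8543 and -9.33 for CG13040, whose span other genes overlap by 41.9%. CG3355, CG32248 and CG8543 had 0 counts in both mesodermal libraries labelled 10-13, so that their fitted differences are no bound.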

How the results depend on the processing

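With all libraries the call of 2154 genes kept a count within 1.5 times under other scalings, other filters, DESeq2, limma-voom and a replicate block (846 higher and 1208 lower; the replicate numbers are not known to pair samples, and deviations of same-numbered early-labelled and late-labelled libraries correlated at 0.16). The exception was DESeq2 for genes higher, with 1354. A fit of only the 4 neuronal libraries gave 765 (159 higher, 606 lower) and no interaction. Leaving out 1 library gave 386 to 4231 calls, 57 to 2098 higher and 329 to 2133 lower, and 1018 to 2478 interactions with the neuronal change above. Asking 4-fold in each pair left 10 genes that hold higher, and dropping the leave-one-out condition gave 195 higher and 780 lower. Of genes apart between late-labelled libraries, 598 at 2-fold and 146 at 8-fold were higher in replicate 2, and 482 and 3 in replicate 1. Between the early-labelled libraries these were 49 and 0, and 44 and 0.

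Some changes that did not pass turned sign, and the cause was not tested. nSyb gave -0.04 with library totals, -0.16 without early-labelled replicate 2 and -0.25 without late-labelled replicate 1, and 0.40 without late-labelled replicate 2. Syt1 gave -0.01 with library totals, -0.07 with limma-voom, -0.03 with the block, -0.24 without early-labelled replicate 2 and -0.76 without late-labelled replicate 1, against 0.65 without late-labelled replicate 2. Without early-labelled replicate 1 brp and repo gave 0.14 and 0.29, and without late-labelled replicate 2 0.09 and 0.02, with lowest values of -0.91 and -0.36 when another library was left out. Also without late-labelled replicate 2, Ubx gave 0.11, mt:CoI -0.08 and Jon99Fii -1.26. Without late-labelled replicate 1, Ubx gave -0.23 and Jon99Fii 3.77. Of 155 named genes that passed, 92 lost the call without early-labelled replicate 1, 52 without early-labelled replicate 2, 2 without late-labelled replicate 1 and 9 without late-labelled replicate 2. As to depth, the neuronal libraries held 10023 to 10561 genes with 10 counts or more.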
